A study of Mus musculus with 9 samples.

Results

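*Ciart* and *Klf15*, a clock repressor gene and a Krüppel-like factor gene, were followed through whole-hemibrain RNA-seq of ageing mice whose microglia had been depleted and allowed to return. These 2 of the 689 genes in the deposited expression table were chosen by symbol, with their values in these libraries already known, so their levels and differences are given as a description and carry no test. *Ciart* was lowest in the aged-repopulated mice, at 9.04 ± 0.517 RPKM (RPKM scales a gene's reads by transcript length and by the library's mapped reads; SD, n = 3), against 12 ± 1.07 in young and 11.5 ± 0.989 in aged controls. *Klf15* was lowest in the young controls, at 8.55 ± 0.62 RPKM, against 10.3 ± 0.165 in aged controls and 10.8 ± 0.744 in aged-repopulated mice.

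All 9 mice were male C57BL/6J, and each library was made from one frozen hemibrain of one mouse. The 3 young controls (libraries P07, P08 and P09, labelled 5 months) and the 3 aged controls (P10, P11 and P12, 24 months) received control chow for 6 weeks. The 3 aged-repopulated mice (P01, P02 and P03, 24 months) ate PLX5622 chow for 2 weeks and then control chow for 4 weeks; PLX5622 blocks CSF1R, a receptor that microglia need to survive, and microglia refill the brain once it is withdrawn. Young mice came from a breeder and aged mice from an ageing colony, so age and supplier cannot be told apart, and all brains were taken after behavioural testing. The hour of collection is not given in the sources used here. A hemibrain mixes every region and cell type, and in such bulk tissue fewer cells of a type and less RNA per cell cannot be told apart. The table holds genes that the authors had already called different with a model that drew on these libraries, so most of its genes differ between groups by selection. The paper describes that model as covering age and the control, repopulated and eliminated conditions.

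The mammalian clock runs on a loop in which the CLOCK and BMAL1 proteins bind E-boxes, short DNA motifs, and drive transcription of their own repressors. *Ciart*, also called *Chrono*, encodes one of those repressors: it binds BMAL1 and lowers the activity of CLOCK and BMAL1 at E-boxes. *Klf15* encodes a zinc-finger transcription factor that glucocorticoids induce, whose level follows a daily rhythm in several tissues, and which is known for its control of amino acid, lipid and glucose metabolism.

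The promoters of both genes are shown because they share a feature that was not used to choose them. Each window runs from 250 bases before the transcription start to 50 bases after it (RefSeq, GRCm38.p6), and is printed here from its first base to 10 bases past its last E-box, 5′ to 3′ on the strand of the gene, with each E-box (CACGTG) in capitals. The *Ciart* stretch is chr3:95882257-95882478 on the minus strand and the *Klf15* stretch is chr6:90462326-90462588 on the plus strand.
Ciart: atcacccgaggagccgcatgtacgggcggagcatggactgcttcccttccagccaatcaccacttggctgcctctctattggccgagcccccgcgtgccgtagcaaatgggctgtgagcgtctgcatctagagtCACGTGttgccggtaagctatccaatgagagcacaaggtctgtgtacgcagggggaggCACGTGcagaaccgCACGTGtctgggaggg
Klf15: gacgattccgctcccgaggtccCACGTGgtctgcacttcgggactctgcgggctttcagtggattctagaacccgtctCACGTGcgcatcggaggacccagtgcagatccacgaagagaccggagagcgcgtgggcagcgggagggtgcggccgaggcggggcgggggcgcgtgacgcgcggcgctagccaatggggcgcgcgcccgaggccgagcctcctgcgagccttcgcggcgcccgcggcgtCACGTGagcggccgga
Each window held 3 E-boxes. Counted from the transcription start they began at −116, −58 and −44 in *Ciart* and at −228, −172 and −3 in *Klf15*, so that the last one in *Klf15* spans the start itself. The distance between the first E-box and the next was 58 bases in *Ciart* and 56 bases in *Klf15*, while from that next one to the last it was 14 and 169 bases. Of all 32851 mouse promoter windows, 7.15% held at least 1 E-box and 0.0883% held 3 or more. Of the 557 table genes with a window, *Ciart* and *Klf15* were the only ones with 3 or more, a count made after the E-boxes of both had been seen.

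**Figure D1:**
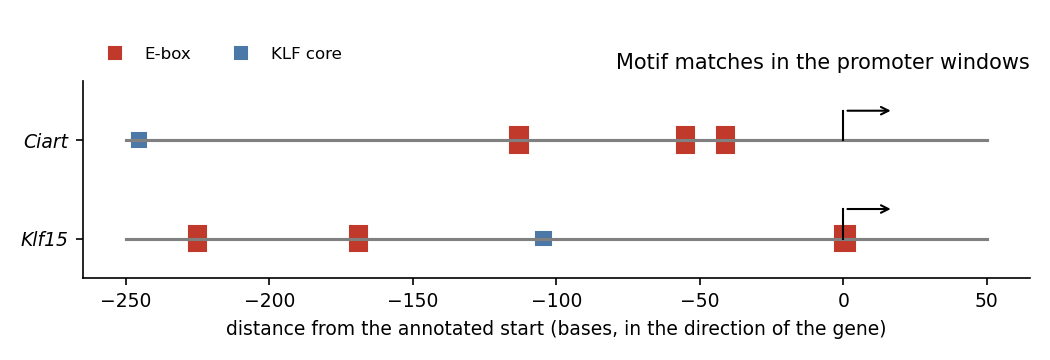
Position of motif matches in the promoter windows of *Ciart* and *Klf15*, in bases from the transcription start, drawn on the strand of each gene. Each window holds 3 E-boxes and 1 KLF core.

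Other motifs did not set the pair apart. The KLF core CACCC, searched on both strands like every motif here, occurred once in each window and in 57.5% of all windows. Neither window held the E′-box CACGTT (4.68% of all windows), the D-boxes TTATGTAA (0.938%) or TTACGTAA (0.119%), the RORE core TAGGTCA (2.61%), the cAMP response element TGACGTCA (1.79%), the glucocorticoid receptor site AGAACA (19.0%) or the full glucocorticoid response element (0.00913%). The absence of a match says only that these letters are not in this window. Among the other genes of a list of 29 circadian clock genes, 21 had a window and 4 held an E-box, namely *Bhlhe41*, *Cry1*, *Per1* and *Tef*, with 1 each. The 7 other table genes with 2 or more E-boxes (*Atp6v0b*, *Bax*, *Crebrf*, *Eif5a2*, *Picalm*, *Slc36a1* and *Tulp4*) had a median log2 difference of 0.01 for aged against young controls, 0.04 for aged-repopulated against aged controls and 0.05 for aged-repopulated against young controls. The 489 table genes without an E-box had medians of 0.10, −0.04 and 0.04 in the same order. The difference between these classes was not tested.

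In the annotation of the same build (GENCODE M21, GRCm38), *Ciart* (ENSMUSG00000038550.10) lies at chr3:95878503-95882251 on the minus strand with 6 transcripts, and its longest coding transcript has 1939 bases. Of its 2397 exonic stretches of 50 bases, 286 also occur in *Gm9176*, and the gene lies within *C920021L13Rik* on the opposite strand. Whether the libraries kept strand is not given in the sources used here, so reads from *Ciart* and its antisense neighbour may not have been separated. *Klf15* (ENSMUSG00000030087.11) lies at chr6:90462576-90475238 on the plus strand with 5 transcripts, the longest coding one of 2482 bases. None of its stretches is shared with another gene (0 of 2833) and no gene overlaps it.

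Both genes sat at the low end of the table. Their means over the 9 libraries were 10.8 RPKM for *Ciart* and 9.88 RPKM for *Klf15*, the 52nd and 11th lowest of 689 genes. The authors kept genes above 10 RPKM, and each of the pair was above 10 RPKM in 6 of the 9 libraries. For *Ciart* these were the 3 young and 3 aged controls, with 0 of the 3 aged-repopulated libraries. For *Klf15* they were the 3 aged controls and 3 aged-repopulated libraries, with 0 of the 3 young ones. How the authors applied their minimum over libraries is not given in the sources used here.

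*Ciart* stood at 11.5, 11.2 and 13.2 RPKM in the young controls P07, P08 and P09. It stood at 12.6, 11.2 and 10.7 RPKM in the aged controls P10, P11 and P12. In the aged-repopulated libraries P01, P02 and P03 it stood at 8.45, 9.26 and 9.41 RPKM. The young and aged control values overlapped in part, with P09 above every aged control and P12 below every young one, while every aged-repopulated library lay below every control of either age. The order of group means was young control, aged control and aged-repopulated, of which the first and second did not differ beyond their spread.

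*Klf15* stood at 7.88, 8.66 and 9.11 RPKM in the young controls. It stood at 10.1, 10.4 and 10.3 RPKM in the aged controls and at 10.3, 10.5 and 11.7 RPKM in the aged-repopulated libraries. All 6 aged libraries lay above all 3 young ones, and the aged controls and aged-repopulated libraries overlapped. The order of means was aged-repopulated, aged control and young control, of which the first and second did not differ beyond their spread.

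**Figure D2:**
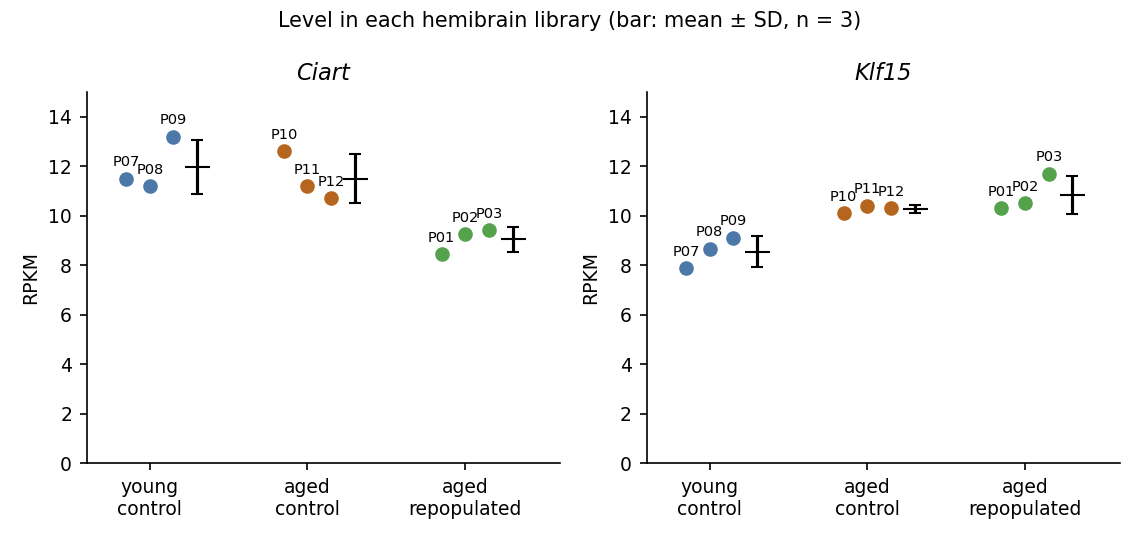
RPKM of *Ciart* and *Klf15* in each of the 9 libraries (points) by group, with group mean and SD (n = 3). The aged-repopulated *Ciart* values lie between 8.45 and 9.41, below all controls, and the young *Klf15* values between 7.88 and 9.11, below all aged libraries.

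The comparison of aged with young controls addressed age without any treatment. *Klf15* differed by 0.24 on the log2(RPKM + 1) scale (SE 0.06), a ratio of means of 1.20, without overlap between the groups. In the table as a whole, 50.7% of genes were higher and 19.4% lower without overlap in this comparison. *Ciart* differed by −0.06 (SE 0.07), with overlapping groups. The median log2 level of a library over the table was itself 0.11 higher in aged than in young controls, and with each library centred on its median the difference was 0.13 for *Klf15*, still without overlap, where 16.1% of table genes were then higher without overlap, and −0.16 for *Ciart*, with overlap. Centring also turned the balance of genes called with age, from 319 higher and 114 lower to 78 higher and 215 lower.

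The comparison of aged-repopulated with aged controls addressed microglial turnover in old mice. *Ciart* differed by −0.31 (SE 0.07), a ratio of means of 0.79, without overlap, where 22.2% of table genes were lower without overlap and 15.2% higher. It was the 9th lowest difference of the 689. *Klf15* differed by 0.07 (SE 0.06), with overlapping groups. With each library centred on its median, *Ciart* differed by −0.26 without overlap, where 9.43% of table genes were then lower without overlap. *Klf15* differed by 0.12, and its centred values did not overlap either, at 3.43 to 3.45 in aged controls and 3.48 to 3.65 in aged-repopulated mice, where 27.9% of table genes were then higher without overlap.

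Against young controls, the aged-repopulated mice addressed how far old brains with returned microglia stood from young ones. *Ciart* differed by −0.37 (SE 0.07), a ratio of 0.75, and was the 7th lowest difference of the table, where 11.2% of genes were lower without overlap. *Klf15* differed by 0.31 (SE 0.06), a ratio of 1.27, and was the 25th highest, where 31.5% of genes were higher without overlap. This comparison and the one with aged controls use the same aged-repopulated libraries, and the 2 comparisons with aged controls share those controls, so the 3 sets of values are not independent.

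**Figure D3:**
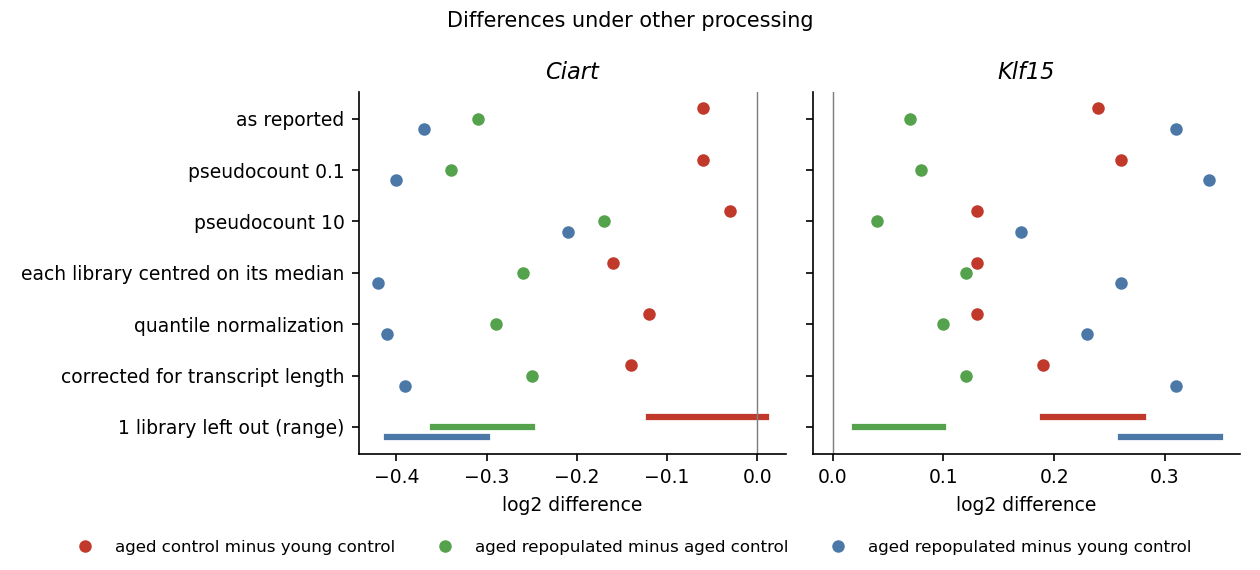
Log2 difference of *Ciart* and *Klf15* in each comparison under the setting reported and the alternatives (points), with the range over refits that each left out 1 library (bars). The *Ciart* value for age changes sign when young control P09 is left out, at 0.01, and no other value of the pair does so.

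Because both genes were measured in each library, their ratio does not depend on a single scaling factor applied to that library. A scaling that treats genes differently can still change it. The ratio of *Klf15* to *Ciart* RPKM was 0.683, 0.772 and 0.690 in the young controls, 0.801, 0.928 and 0.966 in the aged controls and 1.22, 1.14 and 1.24 in the aged-repopulated libraries. The 3 groups did not overlap. Both genes were chosen with their values known, so this separation follows in part from the choice. Ratios of other gene pairs were not examined. The mean was 0.715 ± 0.0495 for young controls, 0.898 ± 0.0864 for aged controls and 1.20 ± 0.0532 for aged-repopulated mice (SD, n = 3), so *Klf15* was the lower of the pair in every control and the higher in every aged-repopulated library. Over the 9 libraries the levels of both genes had a Pearson r of −0.54 (Spearman rho −0.67), and of deviations from the group means 0.44. These are descriptions over 9 libraries that share their group differences.

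**Figure D4:**
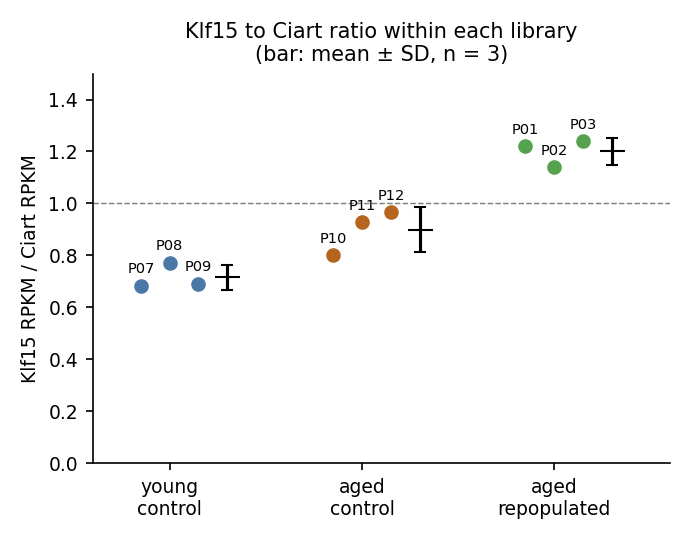
Ratio of *Klf15* to *Ciart* RPKM in each library (points), with group mean and SD (n = 3). Means go from 0.715 for young controls to 0.898 for aged controls and 1.20 for aged-repopulated mice, and the groups do not overlap. Both genes were chosen with their values known.

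The rest of the clock was sparsely represented. Of the 29 clock genes on the list, 3 were in the table, *Ciart* among them. The core genes *Clock*, *Per1*, *Per2*, *Cry1* and *Nr1d1* were not among the genes analysed. *Usp2*, which encodes a deubiquitinase with a daily rhythm, was at 14.1 ± 0.103 RPKM for young controls, 15.7 ± 1.31 for aged controls and 13.2 ± 0.230 for aged-repopulated mice. It rose with age by 0.14 (limma, Benjamini-Hochberg adjusted p = 0.036, where 46.3% of table genes rose and 16.5% fell) and fell after repopulation by 0.23 (limma adjusted p = 0.037, where 5.81% fell and 2.9% rose), and was 0.10 lower than in young controls with a limma adjusted p = 0.21. *Tef*, a D-box-binding clock output factor, was at 76.3 ± 3.16, 78.8 ± 0.507 and 73.0 ± 1.54 RPKM, with differences of 0.05 for age (limma adjusted p = 0.27; −0.06 with centred libraries and −0.14 after quantile normalization, limma adjusted p = 0.037, but 0.11 after the length correction, limma adjusted p = 0.032) and −0.11 for repopulation (limma adjusted p = 0.076). The *Tef* groups did not overlap for repopulation, but did so with centred libraries, where the difference was −0.05 (limma adjusted p = 0.35), and it was −0.04 after quantile normalization (limma adjusted p = 0.59). The call for *Usp2* after repopulation was lost in 8 of 9 refits that left out a library (limma adjusted p between 0.05 and 0.079). That call was also lost with only the groups compared in the fit (limma adjusted p = 0.095). The rise of *Usp2* with age was not called with centred libraries, after quantile normalization, with only the groups compared in the fit, or without P07, P08, P09 or P10, and was 0.07 without P10.

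Genes linked to glucocorticoids, the hormones that induce *Klf15*, moved in no single direction. Of 35 such genes, 6 were in the table, and of the 5 other than *Klf15*, 2 rose with age and 0 fell, where 46.3% of table genes rose, with a median difference of 0.16 against 0.10 over the table; with centred libraries 0 were called. *Bcl6*, a transcriptional repressor, was at 9.18 ± 0.120 RPKM for young controls, 10.3 ± 0.342 for aged controls and 10.7 ± 0.565 for aged-repopulated mice. It rose by 0.16 with age (limma adjusted p = 0.013) and was 0.20 above young controls after repopulation (limma adjusted p = 0.021, where 4.21% of table genes rose and 0.726% fell), and neither call held with centred libraries. *Glul*, which encodes glutamine synthetase of astrocytes, rose by 0.16 with age (limma adjusted p = 0.013), but its difference was 0.06 with centred libraries and −0.02 after quantile normalization, neither called. The classical targets *Sgk1*, a kinase, and *Tsc22d3*, which encodes the anti-inflammatory protein GILZ, differed by −0.05 and 0.02 with age (limma adjusted p = 0.68 and 0.77) and by 0.13 and −0.02 after repopulation (limma adjusted p = 0.33 and 0.75). *Dusp1*, a phosphatase gene induced both by glucocorticoids and by neuronal activity, was at 20.7 ± 3.95, 24.9 ± 4.05 and 11.7 ± 0.758 RPKM, and fell by 1.01 after repopulation (limma adjusted p = 0.010).

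Of 27 genes of the KLF and SP family, *Klf6* was the only one in the table besides *Klf15*. Its level was 10.3 ± 0.706 RPKM among young controls, 11.5 ± 0.320 among aged controls and 9.74 ± 0.664 after repopulation. *Klf6* differed by 0.14 with age (limma adjusted p = 0.056). The age difference was called after the length correction (0.19, limma adjusted p = 0.021), with only the groups compared, and without P09 or P03. With centred libraries it was 0.03 (limma adjusted p = 0.72). The fall of *Klf6* after repopulation was 0.21 (limma adjusted p = 0.048) and kept its call under only 1 of the other settings tried. Of 25 genes of the amino acid and lipid metabolism that *Klf15* is known to govern, 3 were in the table, of which 2 rose with age, where 46.3% of table genes rose, or 1 with centred libraries. *Prodh*, which encodes proline dehydrogenase, was at 9.29 ± 0.464, 11.9 ± 1.18 and 10.3 ± 1.03 RPKM and rose by 0.32 with age (limma adjusted p = 0.011). *Acadl*, of fatty acid oxidation, rose by 0.23 (limma adjusted p = 0.018), a call lost under all 3 other scalings. It was 0.12 with centred libraries (limma adjusted p = 0.15). After quantile normalization and after the length correction it was 0.14 (limma adjusted p = 0.14 and 0.1). *Gpt2*, an alanine transaminase, differed by 0.14 (limma adjusted p = 0.064). None of these 3 was called after repopulation.

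**Figure D5:**
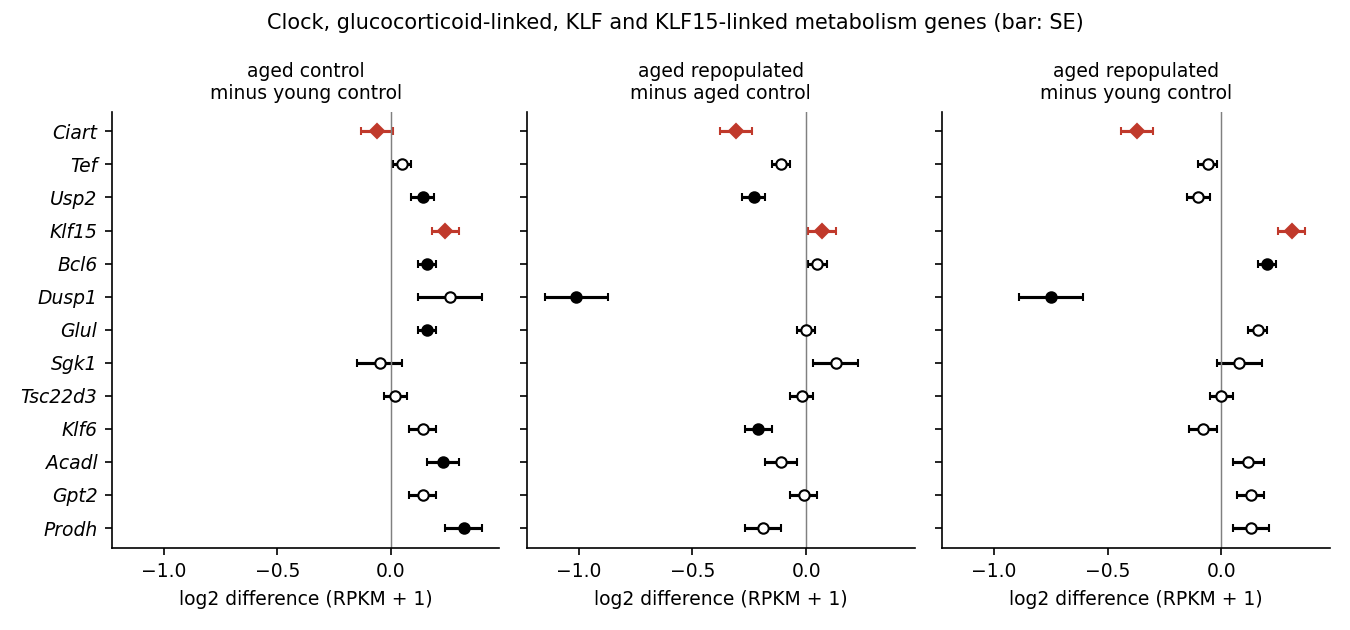
Log2 difference (with SE) of the table's genes from the clock, glucocorticoid, KLF and SP and metabolism lists in each comparison. Filled points have a limma adjusted p under 0.05, open points do not, and red diamonds mark *Ciart* and *Klf15*, which were not tested.

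Activity-induced and cell type genes moved alongside and are given for comparison; their part in the values of *Ciart* and *Klf15* was not tested. All 5 immediate early genes in the table (of 26 listed) fell after repopulation (4 after the length correction), where 5.81% of table genes fell, among them *Btg2*, an antiproliferative gene, which fell by 1.44 (limma adjusted p = 0.003), *Dusp1*, already described, and *Nr4a1*, an orphan nuclear receptor, which fell by 0.99 (limma adjusted p = 0.034). Not all 5 calls held when 1 library was left out: the whole table had 2 genes called without P03 and 4 without P08 or P12. *Dusp1* kept its call in all 9 such refits. The summed level of the 5 genes was 78.2 to 130 RPKM for young controls, 106 to 170 for aged controls and 59.0 to 71.8 for aged-repopulated mice, so that every aged-repopulated library lay below every control. *Nr4a1* alone overlapped the young controls, at 24.8 RPKM in P03 against 23.8 in P07. Against young controls 2 of the 5 were called lower (1 after quantile normalization), where 0.726% of table genes fell. Of the microglial markers, 8 of 16 were in the table and 7 rose with age (6 with centred libraries), where 46.3% of table genes rose, with a summed level of 155 to 161 RPKM for young controls, 229 to 272 for aged controls and 219 to 318 for aged-repopulated mice, and 0 were called for repopulation against aged controls. Of the endothelial and mural markers, 4 of 15 were in the table, with a summed level of 65.5 to 66.6 RPKM in young and 62.4 to 69.1 in aged controls and 52.4 to 66.8 after repopulation. With age 2 of them rose, *Ly6a* by 0.59 (limma adjusted p = 0.0066) and *Ly6c1* by 0.37 (limma adjusted p = 0.012), and 1 fell, *Itm2a*, by 0.46 (limma adjusted p = 0.0096). In the table as a whole, 46.3% of genes rose and 16.5% fell with age. After repopulation 1 of these markers fell, *Slco1a4*, a transporter gene of brain endothelium, by 0.38 (limma adjusted p = 0.012, where 5.81% of table genes fell). Astrocyte markers, with 2 of 15 in the table, summed to 422 to 440, 473 to 509 and 467 to 504 RPKM. Most of this sum was *Glul*, already described, at a mean of 411 RPKM in young controls against 22.5 for *Gjb6*. Both astrocyte markers rose with age, where 46.3% of table genes rose, but 0 were called with age after centring or quantile normalization, and 0 were called after repopulation. Of 4 neuronal markers in the table, 3 rose and 1 fell with age, where 46.3% of table genes rose and 16.5% fell. With centred libraries 1 rose and 1 fell with age, where 78 of the 689 genes rose and 215 fell. After repopulation 1 neuronal marker fell, where 5.81% of table genes fell and 2.9% rose. Neither quantile normalization nor the length correction kept that call. With centred libraries 1 neuronal marker rose and 0 fell after repopulation, where 111 table genes rose and 22 fell. The 1 oligodendrocyte marker in the table, *Opalin*, fell by 0.53 with age (limma adjusted p = 0.013) and differed by 0.37 after repopulation (limma adjusted p = 0.093), the highest difference of the 689 in that comparison, which was called higher with centred libraries.

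The genes most like each of the pair across the 9 libraries were picked by Pearson's r of log2 levels, as a description over 9 libraries in 3 groups. For *Ciart* they were *Prmt8* (r = 0.97), *Arl4a* (0.87), *Ppp1r1a* (0.86), *Slco1a4* (0.84) and *Erlec1* (0.84). *Prmt8*, an arginine methyltransferase gene of brain, was at 21.5 ± 0.957, 21.4 ± 0.515 and 19.2 ± 0.474 RPKM, and its r with *Ciart* was 0.89 for deviations from the group means, while that of *Slco1a4* was 0.06 and that of *Erlec1* 0.01. For *Klf15* they were *Fam133b* (0.92), *Xbp1* (0.90), *Bcl6* (0.88), *Pisd-ps1* (0.87) and *Pisd-ps2* (0.87). *Xbp1*, a transcription factor of the unfolded protein response, was at 20.4 ± 1.06, 24.2 ± 1.81 and 24.1 ± 1.55 RPKM, with an r of 0.70 for deviations from the group means, and that of *Bcl6* was 0.32. *Pisd-ps1* and *Pisd-ps2* are pseudogenes of one family that may share reads. The choice of genes depended on the measure: of the 5 for *Klf15*, 1 was among the top 5 by Spearman's rho, 1 without the 2 libraries farthest from the median, 0 for deviations from the group means and 2 with centred libraries, against 4, 3, 1 and 3 for *Ciart*. For *Pisd-ps1* and *Pisd-ps2*, rho was 0.58 and 0.62, and r without those 2 libraries was 0.59 for both.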

How the data were processed

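Hemibrain RNA of 9 mice, 3 per group, was measured by RNA-seq, and groups were taken from the sample labels. Base calling with CASAVA 1.8.2 and ELAND alignment to mm10 preceded the calculation of RPKM by the authors, who required more than 10 RPKM and deposited the RPKM of the 689 genes that their own generalized linear model had called. The deposited F and t scores and p-values of the authors' model were not used. All 9 library columns were mapped, and no library pair was identical. Another 3 deposited columns were left out of the map. Young repopulated and aged eliminated mice were not analysed here.

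Read depth is unknown: steps left by whole reads were sought in 486 genes, with best mean cosines of 0.124 to 0.157 per library, where perfect steps give 1. Precision is set by how far the 3 mice of a group differ. No counting interval is given.

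Values were analysed as log2(RPKM + 1), a scale that understates changes of low genes, with a pseudocount of 1. All 9 libraries entered one limma 3.58.1 fit (R 4.3.3), with Benjamini-Hochberg adjustment over the 689 genes at 0.05. The fit was tried on simulated data without any prior selection of genes, so that trial does not cover the authors' selection. The adjusted p-values of all genes named here are not corrected for that selection. The members and lists were chosen with earlier results of these data known, so *Ciart* and *Klf15* received no p. Named genes were the pair, every table gene of the clock, glucocorticoid, KLF and SP and metabolism lists, up to 3 examples from each other list, and the 5 genes most correlated with each of the pair. The E-box genes and *Opalin* were named after their values were seen. Transcript lengths came from GENCODE M21 for 686 of 689 genes, 19 through an older symbol. Promoter windows came from RefSeq for 557 genes. Other pseudocounts, scalings, a filter, a fit of only the groups compared and leaving out each library were tried. Summaries and plots used Python 3.11.15, pandas 2.3.3, numpy 2.4.6 and matplotlib 3.10.9.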

Additional observations from a re-analysis of the deposited data

How the results depend on the processing

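No paired analysis was possible because the labels share no replicate number between groups. Of 90 values of *Ciart* and *Klf15* under other settings, 83 moved by less than the spread between replicates, 6 moved further and 1 changed sign. The 83 include fits that could not change a difference by construction. These were the fits of only the groups compared and those without a library of the group not compared. The change of sign was *Ciart* with age, 0.01 without young control P09 against −0.06 with all libraries (range over left-out libraries −0.12 to 0.01). With a pseudocount of 10, which shrinks every difference of low genes by construction, *Ciart* differed by −0.17 for repopulation against aged controls and by −0.21 against young controls, and *Klf15* by 0.13 with age and 0.17 against young controls. *Klf15* with age was also 0.13 with centred libraries and with quantile normalization. With 1 library left out, *Ciart* ranged from −0.36 to −0.25 for repopulation and from −0.41 to −0.30 against young controls, and *Klf15* from 0.19 to 0.28 with age, 0.02 to 0.10 for repopulation and 0.26 to 0.35 against young controls. A minimum mean of 20 RPKM removed both genes and gave no value for them.

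The number of table genes called with age was 433, 277 with quantile normalization, 245 with the length correction and 251 above 20 RPKM, and 269 to 438 with 1 library left out (lowest without P09). It split into 319 higher and 114 lower, but into 78 higher and 215 lower with centred libraries, 88 and 189 with quantile normalization and 214 and 31 with the length correction. For repopulation 60 were called, 133 with centred libraries, 15 with the length correction, 31 above 20 RPKM and 5 with only the groups compared, and 2 to 141 with 1 library left out (lowest without P03, highest without P10). These split into 20 higher and 40 lower, or 111 and 22 with centred libraries, 52 and 21 with quantile normalization and 3 and 12 with the length correction. Against young controls 34 were called, 61 with centred libraries, 86 with the length correction and 22 above 20 RPKM, and 11 to 59 with 1 library left out (lowest without P08, highest without P02), split into 29 higher and 5 lower, or 23 and 38, 18 and 25, and 71 and 15 in the same order. *Glul* with age was −0.02 with quantile normalization. The causes were not tested, and without depth no counting error can be given.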
